A study of Mus musculus with 12 samples.

Results

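Long noncoding RNAs (lncRNAs) are transcripts as long as messenger RNAs that are not known to be translated into a functional protein. The RNAs described here are Malat1 and 7 others: Neat1, Meg3, Rian, Mirg, H19, Gas5 and Snhg1. Skeletal muscle of C57Bl/6 mice was profiled on 12 Affymetrix arrays, 4 for each of 3 groups. Chow mice stayed on a diet in which fat supplied 13% of calories. The other groups received a high-fat diet (HFD) with 46% of calories from fat, begun at an age of 6 weeks, for 5 days or for 42 days. All mice were group housed, and the series concerns insulin resistance. The labels give neither the muscle, the sex, the age at which chow mice were sampled, a batch, nor whether replicates were separate animals, so errors measure only the spread between these samples. Mice on the diet for 42 days were also older at sampling than those on it for 5 days, and diet time and age cannot be told apart.

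The genes were chosen by name with results of the diet comparisons on these arrays already known. A probe set, the group of short probes that reads one transcript, belonged to them if its only gene symbol in the array's annotation was one of the 8. This found 7 of the 8 genes, of 18193 on the array, through 35 of 45037 probe sets tested: 7 for Malat1, 2 for Neat1, 11 for Meg3, 4 for Rian, 2 for Mirg, 4 for Gas5 and 5 for Snhg1. H19, the maternally expressed RNA that neighbours Igf2, had 0, because its probe set also carries the symbol of the microRNA Mir675, which lies inside the gene. That mixed probe set, 1448194_a_at, read 13.2, 13.2, 13.4 and 13.2 on chow, 13.5, 13.3, 13.3 and 13.4 at 5 days, and 13.1, 13.4, 13.1 and 13.3 at 42 days. Its groups overlapped. All values are the authors' RMA signals on the log2 scale, so a difference of 1 is 2-fold.

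Malat1 is retained in the nucleus and collects in nuclear speckles, where splicing factors are stored. Its mature 3′ end is made by RNase P, and its A-rich tail is encoded in the gene rather than added by a polymerase. Neat1, transcribed from the neighbouring locus, is the scaffold of paraspeckles. Meg3, Rian and Mirg are read from the maternal chromosome in the imprinted Dlk1-Dio3 region, which carries clusters of microRNAs and small nucleolar RNAs. Gas5 and Snhg1 carry small nucleolar RNAs in their introns. The spliced remainder of each has little coding capacity, is bound by ribosomes and is removed by nonsense-mediated decay. In the RefSeq annotation of GRCm38.p6, Malat1 lies at chr19:5795690-5802672, Neat1 at chr19:5824708-5845480 and Snhg1 at chr19:8723487-8726326. Meg3 lies at chr12:109540996-109571729, Rian at chr12:109603945-109661716 and Mirg at chr12:109734981-109749458. Gas5 lies at chr1:161034601-161038539. Inside these bounds RefSeq places 1 microRNA hairpin in Meg3 (Mir770), 3 in Rian (Mir341, Mir1188 and Mir370) and 10 in Mirg, among them Mir154 and Mir410.

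The promoters of Malat1, Snhg1 and Gas5 are shown because probe sets of Malat1 and Snhg1 had the lowest values relative to chow at 42 days, and because Gas5 and Snhg1 belong to the genes whose transcripts start with a run of pyrimidines. Each sequence holds 250 bases before and 50 bases from the RefSeq start site on, in GRCm38.p6. It was searched on both strands for the CRE half-site TGACG, the TATA box TATAAA, the GC box GGGCGG and the CCAAT box CCAAT, and on the transcribed strand for a run of at least 5 C or T beginning within the first 10 transcribed bases. Capitals mark the matches. RefSeq gives Gas5 more than 1 start, and the window at the second is shown because it holds such a run. The window at the first start (chr1:161034351-161034650) held 5 GC boxes, 0 matches to TGACG and no such run. Malat1 is on the minus strand (chr19:5802623-5802922), and Snhg1 (chr19:8723237-8723536) and Gas5 (chr1:161034916-161035215) are on the plus strand.
Malat1: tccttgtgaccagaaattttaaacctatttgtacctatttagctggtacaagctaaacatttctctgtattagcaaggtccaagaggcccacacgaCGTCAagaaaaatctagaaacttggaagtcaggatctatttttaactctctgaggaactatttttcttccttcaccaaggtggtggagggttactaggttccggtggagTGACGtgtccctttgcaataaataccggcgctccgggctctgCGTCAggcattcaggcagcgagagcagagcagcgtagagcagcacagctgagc
Snhg1: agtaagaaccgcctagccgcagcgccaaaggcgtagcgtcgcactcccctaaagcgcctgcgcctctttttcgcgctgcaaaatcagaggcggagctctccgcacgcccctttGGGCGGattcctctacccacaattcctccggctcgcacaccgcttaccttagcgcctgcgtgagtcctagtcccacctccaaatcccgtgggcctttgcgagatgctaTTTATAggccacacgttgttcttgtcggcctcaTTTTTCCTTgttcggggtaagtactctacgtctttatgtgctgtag
Gas5: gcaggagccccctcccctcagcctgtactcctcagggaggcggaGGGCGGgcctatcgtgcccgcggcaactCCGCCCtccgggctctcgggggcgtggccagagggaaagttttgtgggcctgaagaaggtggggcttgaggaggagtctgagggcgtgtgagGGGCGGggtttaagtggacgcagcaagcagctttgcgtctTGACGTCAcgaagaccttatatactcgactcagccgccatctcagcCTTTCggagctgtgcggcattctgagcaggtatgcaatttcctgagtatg

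The Malat1 window held 3 matches to TGACG, at positions -154 to -150, -45 to -41 and -3 to 2 counted from the start site, and 0 to the other motifs. The Snhg1 window held 1 TATAAA, at -29 to -24 on the opposite strand, 1 GC box and a pyrimidine run of 9 bases at positions 5 to 13. The Gas5 window held a run of 5 pyrimidines at positions 1 to 5, directly at the start, with 3 GC boxes and 2 overlapping TGACG matches of opposite strands at -46 to -39. Of all 32841 promoter windows of this length, 20.8% held TGACG, 13.6% TATAAA, 35.7% GGGCGG, 37.4% CCAAT and 23.5% such a run. Of the 8 genes, 6 had a window in the table. A match describes the letters and is not a binding site.

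At 42 days most of the Malat1 signal was lower than on chow, and at 5 days its arrays overlapped those of chow. Malat1 is read by 7 probe sets. On the brightest, 1418189_s_at, the chow arrays read 11.4, 12.2, 12.3 and 12.5, the 5-day arrays 11.8, 12.0, 12.3 and 11.5, and the 42-day arrays 11.1, 10.9, 11.1 and 10.4. All 42-day arrays lay below all other arrays, the chow and 5-day arrays overlapped, and chow replicate 1 stood lower than the other 3 chow arrays. The group means were 12.11 ± 0.48 on chow, 11.90 ± 0.35 at 5 days and 10.86 ± 0.34 at 42 days (SD, n = 4). The level at 42 days was 2.36-fold below chow, a log2 difference of -1.24 ± 0.22 (SE from the limma fit to all arrays, 95% interval -1.71 to -0.77).

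Probe set 1418188_a_at, designed from the same source sequence, gave the lowest difference of the 35. It read 10.9, 11.8, 11.9 and 12.1 on chow, 11.3, 11.3, 11.7 and 11.01 at 5 days, and 10.5, 10.2, 10.5 and 9.81 at 42 days. Its 42-day arrays again lay below every chow and 5-day array, with chow replicate 1 the lowest of the chow arrays. The difference from chow was -1.42 ± 0.22 (95% interval -1.89 to -0.96), or 2.68-fold. On 1438403_s_at the chow arrays read 11.2, 12.1, 11.9 and 12.2, the 5-day arrays 11.8, 11.7, 12.0 and 11.4, and the 42-day arrays 10.9, 10.9, 11.1 and 10.5. The same order held, and 42 days stood -0.98 ± 0.19 from chow, 1.97-fold lower. In Affymetrix names an s marks probes shared by several transcripts and an a marks probes shared by transcripts of 1 gene.

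The other 4 Malat1 probe sets had smaller differences. On 1429060_at the chow arrays read 9.64, 9.99, 10.1 and 10.1, the 5-day arrays 9.40, 9.57, 9.84 and 9.70, and the 42-day arrays 9.49, 9.49, 9.40 and 9.23. Here the 42-day arrays lay below all chow arrays but among the 5-day arrays, and the difference from chow was -0.56 ± 0.11. On 1436202_at the chow arrays read 8.44, 9.12, 9.19 and 9.12, the 5-day arrays 8.54, 8.55, 8.88 and 8.37, and the 42-day arrays 8.24, 8.30, 8.06 and 8.26, a difference of -0.75 ± 0.14 at 42 days. All 42-day arrays were below the other 8. Probe set 1452378_at stood at -0.44 ± 0.10 at 42 days, with the chow arrays between 8.20 and 8.73 and the 42-day arrays between 7.91 and 8.17. Probe set 1427285_s_at, designed from the same source sequence as 1452378_at, stood at -0.04 ± 0.074 (95% interval -0.20 to 0.12), with chow between 8.04 and 8.28 and 42 days between 8.05 and 8.26. So 6 of 7 Malat1 probe sets separated the 42-day from the chow arrays and 1 did not, beside 15.2% of all probe sets that separated them. The difference between probe sets was not tested.

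**Figure D1:**
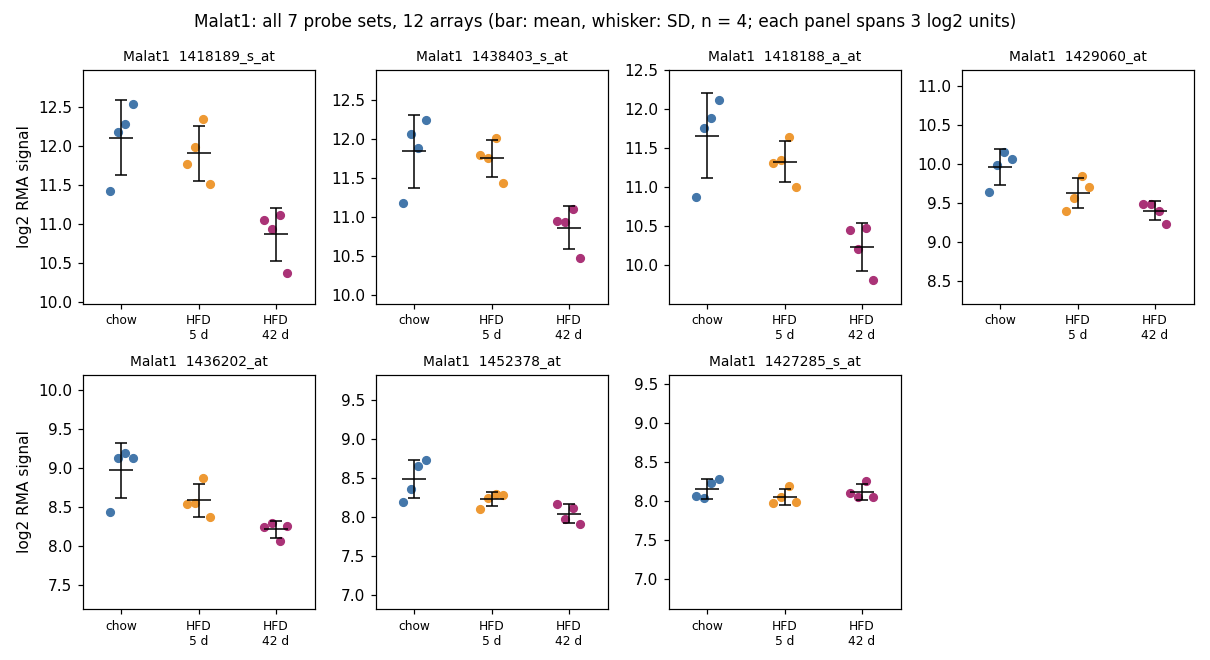
Log2 RMA signal of each of the 12 arrays on the 7 Malat1 probe sets, by diet group (points: arrays; bar: mean; whisker: SD, n = 4; every panel spans 3 log2 units). On 6 probe sets the 42-day arrays lie below all chow arrays, with mean differences of -1.42 to -0.44, and on 1427285_s_at the 3 groups overlap.

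At 5 days all 7 Malat1 probe sets had a lower mean than chow, by 0.091 to 0.39 on the log2 scale, and on each of them the groups overlapped. From 5 to 42 days 1418188_a_at stood at -1.09 ± 0.22, 1418189_s_at at -1.04 ± 0.22 and 1438403_s_at at -0.89 ± 0.19. The other 4 lay between -0.37 and 0.06. For the 3 brightest probe sets most of the difference from chow at 42 days was thus between the 5-day and 42-day groups. For 1429060_at and 1452378_at the larger share, -0.33 ± 0.11 and -0.26 ± 0.10, was already between chow and 5 days. For 1436202_at the difference was -0.39 ± 0.14 between chow and 5 days and -0.37 ± 0.14 from 5 to 42 days. Whether the share of the first 5 days differed between probe sets was not tested.

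Neat1, the paraspeckle scaffold, was read by 2 probe sets that differed in pattern. On 1428083_at the chow arrays read 12.5, 12.7, 12.9 and 13.0, the 5-day arrays 12.3, 12.7, 12.6 and 12.5, and the 42-day arrays 12.4, 12.6, 12.1 and 12.4. Means declined from 12.78 ± 0.24 to 12.52 ± 0.17 and 12.39 ± 0.19 (SD, n = 4), with overlap between all groups. The differences from chow were -0.25 ± 0.12 at 5 days and -0.39 ± 0.12 at 42 days (95% interval -0.64 to -0.14). On 1442881_at the chow arrays read 9.60, 9.57, 9.44 and 9.58, the 5-day arrays 9.51, 9.33, 9.49 and 9.28, and the 42-day arrays 9.67, 9.56, 9.68 and 9.54. The 5-day arrays all lay below the 42-day arrays on this probe set, by 0.21 ± 0.066, and the 42-day mean was 0.07 ± 0.066 above chow. With group means removed, the probe sets had an r of -0.44 over the 12 arrays, so they did not move together from array to array.

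Of the maternally expressed RNAs of the Dlk1-Dio3 region, Meg3 had 11 probe sets, 8 with a lower and 3 with a higher mean at 42 days than on chow. On the brightest, 1439380_x_at, the chow arrays read 10.5, 10.6, 10.8 and 10.7, the 5-day arrays 10.6, 10.6, 10.4 and 10.5, and the 42-day arrays 10.4, 10.3, 10.5 and 10.3. All 42-day arrays lay below all chow arrays. The difference at 42 days was -0.31 ± 0.077 (95% interval -0.47 to -0.15), or 1.24-fold, on a probe set whose x marks possible cross-hybridisation. The other 10 Meg3 probe sets lay between -0.39 and 0.07 at 42 days against chow, and these groups overlapped. The lowest of them, 1452905_at at -0.39 ± 0.13, read 8.90, 9.10, 9.45 and 9.63 on chow and 9.06, 8.81, 8.91 and 8.75 at 42 days, so that chow replicate 1 lay among the 42-day arrays. Of the others, 1452183_a_at stood at -0.12 ± 0.082 and 1426758_s_at at -0.03 ± 0.11. Probe sets of Meg3 therefore did not give one reading of the gene.

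At 5 days the Meg3 differences ran from -0.40 to 0.31. The lowest was 1428765_at, with 6.57, 6.73, 6.38 and 6.39 on chow and 6.18, 6.30, 5.91 and 6.09 at 5 days, the only probe set of the 35 whose chow and 5-day arrays did not overlap. It stood at -0.40 ± 0.11. Of all probe sets on the array, 11.7% did not overlap between chow and 5 days. The highest Meg3 difference was that of 1436713_s_at at 0.31 ± 0.17, with overlapping groups. Over all 11, 8 means were below and 3 above chow. Between 5 and 42 days the arrays did not overlap on 3 of the 11 Meg3 probe sets, beside 17.8% of all probe sets. The 42-day arrays were higher on 1428764_at (0.14 ± 0.072) and 1429257_at (0.21 ± 0.076) and lower on 1452183_a_at (-0.21 ± 0.082). The 11 ran from -0.40 to 0.21 in this comparison.

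Rian, which hosts small nucleolar RNAs, was close to chow in both diet groups. Its brightest probe set, 1452899_at, read 8.18, 8.16, 8.25 and 8.35 on chow, 8.43, 8.25, 7.99 and 8.56 at 5 days, and 8.34, 8.01, 8.06 and 8.15 at 42 days. The groups overlapped, with differences from chow of 0.07 ± 0.10 (95% interval -0.15 to 0.29) and -0.10 ± 0.10 (-0.32 to 0.13). Over its 4 probe sets the differences ran from -0.11 to 0.08 at 5 days and from -0.10 to 0.16 at 42 days, and 0 of them separated the groups. Mirg, the host of a large microRNA cluster, was read by 2 probe sets. On 1440097_at the chow arrays read 8.28, 8.57, 8.30 and 8.48, the 5-day arrays 8.14, 8.18, 8.30 and 8.08, and the 42-day arrays 8.45, 8.17, 8.46 and 8.20. The differences were -0.23 ± 0.084 at 5 days and -0.08 ± 0.084 at 42 days, with overlap. On 1457030_at they were -0.18 ± 0.065 and -0.21 ± 0.065. The 95% interval of the first at 5 days ran from -0.41 to -0.05, and that of the second at 42 days from -0.35 to -0.07.

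**Figure D2:**
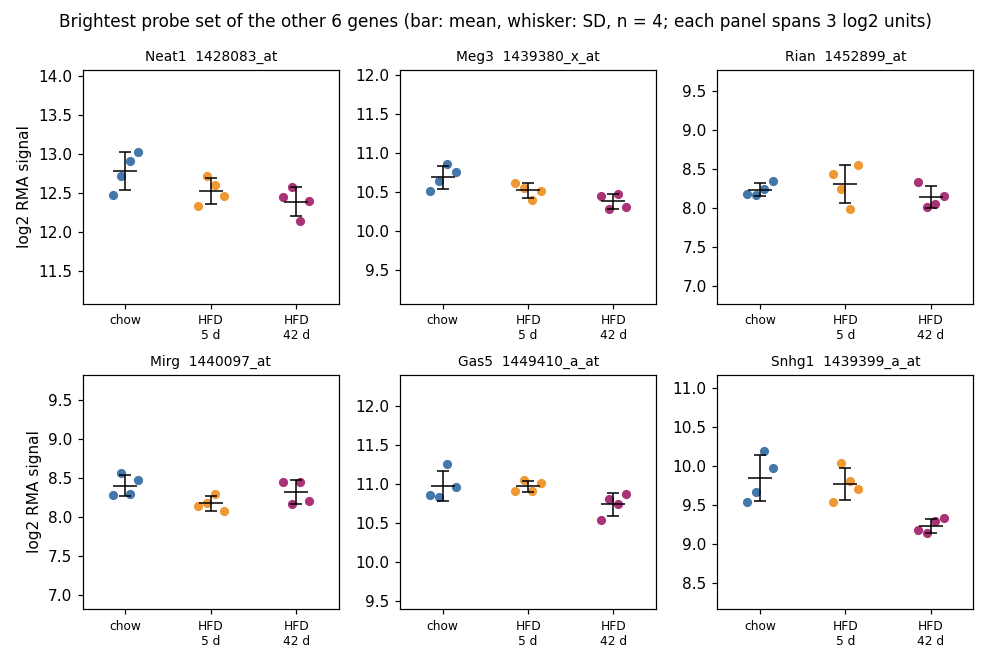
Log2 RMA signal of the 12 arrays on the brightest probe set of Neat1, Meg3, Rian, Mirg, Gas5 and Snhg1, by diet group (points: arrays; bar: mean; whisker: SD, n = 4; every panel spans 3 log2 units). The 42-day arrays lie below all chow arrays for Meg3 and Snhg1 and overlap them for the other 4 genes.

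Among the hosts of small nucleolar RNAs, Snhg1 was lower at 42 days on its brightest probe set. On 1439399_a_at the chow arrays read 9.54, 9.66, 10.2 and 9.97, the 5-day arrays 9.54, 10.03, 9.81 and 9.70, and the 42-day arrays 9.17, 9.14, 9.29 and 9.33. All 42-day arrays lay below the other 8. The group means were 9.84 ± 0.29, 9.77 ± 0.21 and 9.23 ± 0.091 (SD, n = 4), and 42 days stood 1.53-fold below chow at -0.61 ± 0.12 (95% interval -0.88 to -0.35). All 5 Snhg1 probe sets had a lower mean at 42 days than on chow, down to this value from -0.06. Probe sets 1433674_a_at and 1433675_at stood at -0.11 ± 0.12 and -0.21 ± 0.10, with overlapping groups. The dim probe set 1454703_x_at stood at -0.38 ± 0.10, with 5.87, 5.96, 6.25 and 6.16 on chow and 5.59, 5.89, 5.53 and 5.71 at 42 days. On it 1 array of the 42-day group lay above the lowest chow array.

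Gas5 was read by 4 probe sets, 3 of them with a lower mean at 42 days than at both other times. On 1449410_a_at the chow arrays read 10.9, 10.8, 11.3 and 10.96, the 5-day arrays 10.9, 11.05, 10.9 and 11.01, and the 42-day arrays 10.5, 10.8, 10.7 and 10.9. The 42-day mean was below both others, at -0.24 ± 0.091 from chow, while the 5-day mean stood at -0.01 ± 0.091. On 1419291_x_at the chow arrays read 10.7, 10.6, 11.01 and 10.8, the 5-day arrays 10.8, 10.8, 10.8 and 10.7, and the 42-day arrays 10.4, 10.6, 10.5 and 10.6, a difference of -0.25 ± 0.080. Its highest 42-day array, at 10.624, lay just below its lowest chow array, at 10.625. The remaining 2 stood at 0.16 ± 0.11 (1424843_a_at) and -0.15 ± 0.096 (1436222_at). Another probe set, 1455904_at, also carries the symbol of Snord47, a small nucleolar RNA encoded in Gas5, and was left out. Its means were 7.31 on chow, 7.05 at 5 days and 6.93 at 42 days. The highest 42-day array, at 7.105, lay just below the lowest chow array, at 7.113.

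Counted over all 35 probe sets, 0 passed an adjusted p of 0.05 at 5 days against chow, 9 (25.7%) at 42 days against chow and 5 (14.3%) at 42 against 5 days, all of them lower. Across all probe sets, limma called 3.21%, 8.78% and 5.98% in these comparisons (Benjamini-Hochberg adjusted). Of those calls, 52.5%, 47% and 60.1% were lower. The 9 were 6 of Malat1, 1 of Meg3 and 2 of Snhg1, and the 5 were 3 of Malat1 and 2 of Snhg1. Groups did not overlap on 1, 9 and 11 of the 35 probe sets (2.86%, 25.7% and 31.4%), against 11.7%, 15.2% and 17.8% of all probe sets. Since the genes were chosen from these same comparisons, nothing is read from these shares. The median difference of the 35 was -0.10, -0.12 and -0.14, beside -0.02, -0.01 and 0.03 over all probe sets. Lower means outnumbered higher ones by 26 to 9, 28 to 7 and 23 to 12. The 2 comparisons with chow share the chow arrays.

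**Figure D3:**
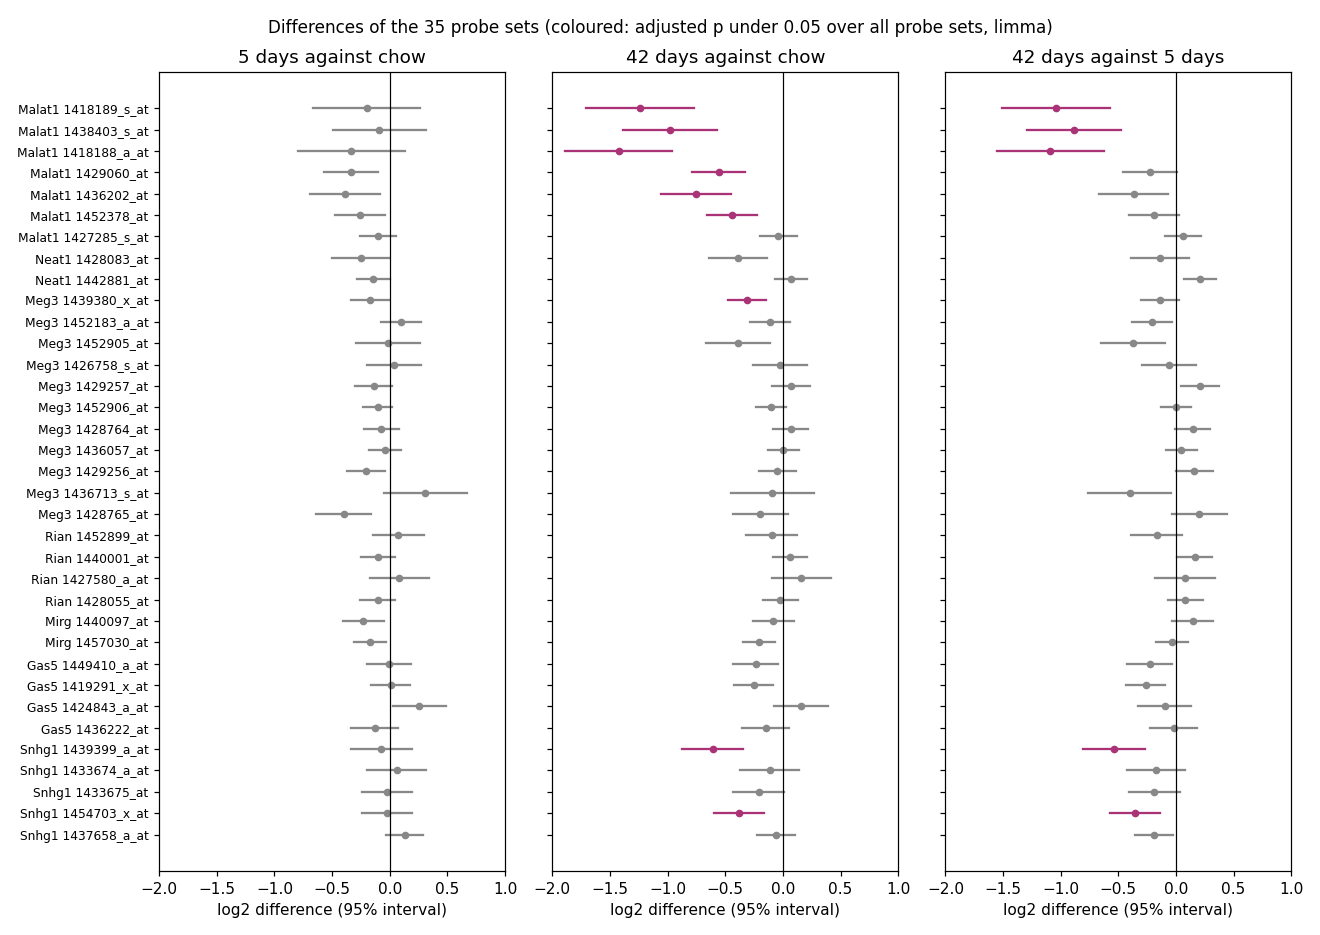
Log2 difference of each of the 35 probe sets with its 95% interval from limma in the 3 comparisons (coloured: adjusted p under 0.05 over all probe sets). At 42 days against chow 9 probe sets are coloured, all to the left of 0 and 6 of them from Malat1, and at 5 days against chow none is.

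These counts depended on single arrays and on measures of the samples. Without chow replicate 3, or without HFD 42 days replicate 4, 6 of the 9 remained past the threshold at 42 days against chow: 5 Malat1 probe sets and Snhg1 1439399_a_at. At 42 against 5 days 0 of 5 remained without HFD 5 days replicate 2 or 3, or without HFD 42 days replicate 1, 2 or 4. At 5 days against chow 2 probe sets of Malat1, 1429060_at and 1436202_at, were past it without chow replicate 1. Without that array the difference of 1418188_a_at at 42 days was -1.69.

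Array platforms that prime from the poly(A) tail read more of the 3′ than of the 5′ end of a transcript, and the gap between the ends is a measure of RNA integrity and labelling. Over 4 control transcripts the mean 3′ minus 5′ value was 0.99 to 1.14 on chow, 0.93 to 1.10 at 5 days and 0.82 to 0.998 at 42 days (log2). Its mean was 1.07 on chow, 1.02 at 5 days and 0.89 at 42 days. Like Malat1 it was lowest at 42 days, and chow replicate 1 had the lowest value of the chow arrays on both. With this measure as a covariate, 0 of the 9 and 0 of the 5 probe sets stayed past the threshold, and of all probe sets 17 and 1 did. The difference of Malat1 at 42 days against chow was then -1.02 on 1418188_a_at, -0.81 on 1418189_s_at, -0.60 on 1438403_s_at, -0.42 on 1436202_at and -0.25 on 1429060_at. That of Snhg1 1439399_a_at was -0.65 (-0.61 without the covariate), that of Meg3 1439380_x_at -0.36 (-0.31), and that of Neat1 1428083_at -0.13 (-0.39). Chow and 42-day arrays barely overlapped on this measure, so the fit separates it poorly from the diet group. For Snhg1 and Meg3 the call was lost although the difference did not shrink. The part of RNA quality in these differences was not tested beyond this covariate.

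**Figure D4:**
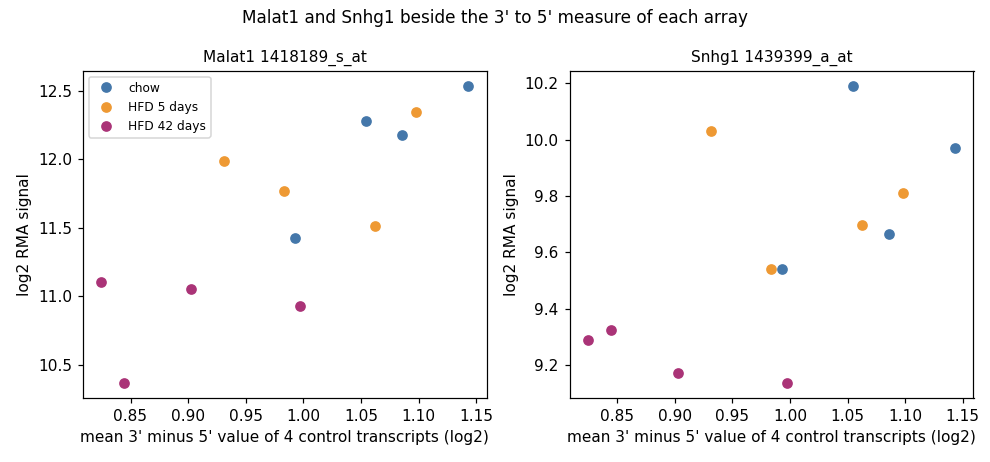
Log2 RMA signal of Malat1 1418189_s_at (left) and Snhg1 1439399_a_at (right) against the mean 3′ minus 5′ value of 4 control transcripts, 1 point per array, coloured by diet group. The 42-day arrays sit lowest on both probe sets and between 0.82 and 0.998 on the x axis, where chow arrays reach from 0.99 to 1.14.

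Cell-type markers were compared because a piece of muscle holds several cell types, and in bulk RNA fewer cells of a type and less RNA per cell cannot be told apart. The 8 muscle fibre markers had a mean of 15.1 to 15.2 on every array, as the tissue label says. The 5 measured of 7 adipocyte markers averaged 10.8 ± 0.45 on chow, 10.004 ± 0.25 at 5 days and 10.2 ± 0.43 at 42 days (SD, n = 4). Their chow arrays (10.435 to 11.416) did not overlap the 5-day arrays (9.787 to 10.321). The 3 brown adipocyte markers averaged 8.13 ± 0.82, 6.95 ± 0.10 and 7.30 ± 0.53. With the adipocyte mean as a covariate, an alternative added after the data were seen, 2 of the 9 probe sets stayed past the threshold, Malat1 1418188_a_at and 1418189_s_at, with differences of -1.27 and -1.06. The other 7 kept their direction. Of these, Malat1 1438403_s_at stood at -0.83, 1436202_at at -0.58, 1429060_at at -0.49 and 1452378_at at -0.39, Snhg1 1439399_a_at at -0.50 and 1454703_x_at at -0.27, and Meg3 1439380_x_at at -0.34. Neat1 1428083_at, at -0.25 at 5 days, stood at 0.01 in that fit. The 5 liver transcripts averaged 8.44 ± 0.20, 8.67 ± 0.80 and 9.94 ± 0.57, and the 5 tendon transcripts 9.48 ± 0.089, 9.70 ± 0.25 and 10.2 ± 0.16. On both, chow did not overlap 42 days: 8.181 to 8.617 against 9.247 to 10.627 for liver, and 9.406 to 9.595 against 9.993 to 10.321 for tendon. The 6 fibroblast markers averaged 11.5 ± 0.21, 11.9 ± 0.25 and 11.9 ± 0.059, and chow (11.3 to 11.8) did not overlap 42 days (11.87 to 11.98). The 4 measured of 5 lymphocyte markers averaged 8.19 ± 0.047, 7.98 ± 0.053 and 8.15 ± 0.11, and chow (8.15 to 8.26) did not overlap 5 days (7.92 to 8.04). The diet groups thus also differed from chow in these transcripts, and their part in the lncRNA values was not tested beyond the adipocyte covariate.

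Whether the RNAs varied together between arrays of one group was tested on deviations from the group means, which leave out the differences between diets. The brightest probe sets of Gas5 and Snhg1 gave r = 0.73 over 12 arrays (exact permutation within groups, two-sided p = 0.0116, adjusted p = 0.058 over 5 pairs) and rho = 0.67 (exact permutation p = 0.0268, adjusted 0.134). Without the 2 arrays farthest from the median of Gas5, chow replicate 3 and HFD 42 days replicate 1, r was 0.65 (exact permutation p = 0.0856). Malat1 and Neat1 gave r = 0.54 (exact permutation p = 0.122, adjusted 0.203) and rho = 0.49, and Meg3 and Rian r = 0.49 (exact permutation p = 0.0855, adjusted 0.203) and rho = 0.48. Meg3 and Mirg gave r = 0.19 and Rian and Mirg r = -0.16 (exact permutation, adjusted p = 0.593 for both). Of the 5 pairs, 0 passed after adjustment and 1 had an unadjusted p under 0.05.

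Probe sets of the same gene shared their deviations to different degrees, given here as a description. The 21 pairs of Malat1 probe sets had r from 0.39 to 0.98, with a median of 0.74, and the 10 pairs of Snhg1 from 0.37 to 0.94, with a median of 0.62. The 55 pairs of Meg3 ran from -0.71 to 0.89, with a median of 0.02. Thus the probe sets of Malat1 and Snhg1 followed a common signal from array to array, and those of Meg3 did not as a set.

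The genes most like Malat1 1418189_s_at over the 12 arrays, among 19073 probe sets of other named genes above the median level, were Mef2c, a muscle transcription factor (r = 0.97), Zfhx3, a zinc finger homeobox factor (0.97), the nuclear protein Nucks1 (0.97), Aasdh (0.96) and Sipa1l1 (0.96). All 5 had lower means at 42 days than on chow, by 0.20 for Mef2c to 0.72 for Nucks1 on the log2 scale. Those most like Meg3 1439380_x_at were Zkscan3 (0.94), Zbtb16 (0.93), Hnrnpm (0.92), Rmdn1 (0.92) and Rbm6 (0.91). They were picked as the highest of many, and these r include the differences between diets.

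The protein partners of these RNAs were read as transcripts, from the brightest probe set of each gene. The lists were drawn up with earlier results of these arrays known, and no protein was measured. On this basis limma called 2.89% of all genes at 5 days against chow, 6.31% at 42 days against chow and 6.1% at 42 against 5 days. Among all 45037 probe sets, 10865, 10388 and 12415 had an unadjusted p under 0.05 by limma in these comparisons, in the same order. The unadjusted counts of each list are to be set beside these, though they count genes, each by 1 probe set. Of 14 measured paraspeckle proteins, 0 passed the test at 5 days (3 at an unadjusted p under 0.05), and at 42 days 1 fell: Ewsr1, an RNA-binding protein, at -0.30 ± 0.065 from chow (limma, adjusted p = 0.011). It read 9.80, 9.81, 10.1 and 9.89 on chow and 9.66, 9.50, 9.64 and 9.59 at 42 days, without overlap. Against 5 days, Ewsr1 (-0.28 ± 0.065, adjusted p = 0.029) and the cleavage factor Cpsf6 (-0.23 ± 0.055, adjusted p = 0.0322) were lower at 42 days by limma. The median of the list was 0.04 at 5 days and -0.07 at 42 days from chow, beside -0.01 for all genes in both comparisons.

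Of 19 measured genes of nuclear speckle and SR splicing proteins, 0 passed at 5 days (4 at an unadjusted p under 0.05). At 42 days against chow 3 fell. The splicing factor Srsf6 stood at -0.40 ± 0.076 (limma, adjusted p = 0.0052), with 11.004, 11.2, 11.3 and 11.3 on chow and 10.8, 10.8, 10.8 and 10.7 at 42 days. Srrm2, a scaffold of nuclear speckles, stood at -0.32 ± 0.078 (adjusted p = 0.0192) and the splicing regulator Tra2a at -0.40 ± 0.10 (adjusted p = 0.0224), both with overlap of chow replicate 1. The remaining 16 did not pass, and 15 of the 19 had a lower mean than on chow. Against 5 days, Srrm2 (-0.38 ± 0.078) and Srsf4 (-0.25 ± 0.061) fell. The list's median at 42 days was -0.10 from chow.

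Of 14 measured other hosts of small RNAs, Snhg18 fell at 5 days (-0.25 ± 0.062, limma adjusted p = 0.0459) and 3 fell at 42 days. Snhg14, the imprinted host transcript of the Snrpn region, read 7.09, 7.24, 7.69 and 7.55 on chow, 6.96, 7.22, 7.26 and 6.87 at 5 days and 6.63, 6.36, 6.92 and 6.52 at 42 days. Its 42-day arrays lay below all chow arrays, at -0.79 ± 0.14, or 1.73-fold (limma, adjusted p = 0.00272). Snhg8 fell by 0.34 and Snhg6 by 0.23 on the log2 scale at 42 days (limma, adjusted p = 0.0132 and 0.0377), each without overlap. Of the 14, 13 had a lower mean than on chow at 42 days, with a median of -0.16. Snhg8 also fell from 5 to 42 days, at -0.31 ± 0.078 (limma, adjusted p = 0.0366).

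The factors that handle such transcripts form short lists, so 1 or 2 calls make a large share of each. Of 7 measured genes for proteins of small nucleolar ribonucleoproteins, that of the methyltransferase Fbl rose at 5 days (0.21 ± 0.054, limma adjusted p = 0.0493). At 42 days 0 passed against chow (3 at an unadjusted p under 0.05) or against 5 days (4). Of 7 measured genes of nonsense-mediated decay factors, 0 passed at 5 days (1 at an unadjusted p under 0.05) and 2 fell at 42 days. The helicase Upf1 read 8.54, 8.63, 8.67 and 8.59 on chow and 8.20, 8.12, 8.23 and 8.33 at 42 days, without overlap, at -0.39 ± 0.063 (limma, adjusted p = 0.00193). Smg5 stood at -0.23 ± 0.067 (limma, adjusted p = 0.0475). Upf1 and the kinase Smg1 were lower at 42 than at 5 days, at -0.25 ± 0.063 and -0.27 ± 0.071 (limma, adjusted p = 0.0354 and 0.0421).

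Imprinted protein-coding genes, of the Dlk1-Dio3 region and of other loci, gave 0 calls of 18 measured in each comparison. In limma 3, 5 and 4 had an unadjusted p under 0.05. Rtl1 and Dio3 were listed but not measured, so the list says little of the region of Meg3, Rian and Mirg. The 18 include Igf2, which was 0.17 ± 0.067 above chow at 5 days (limma, adjusted p = 0.14), and Sgce, which was 0.26 ± 0.083 above chow at 42 days (adjusted p = 0.0649). Their medians were 0.12 and 0.07 above chow at 5 and 42 days. Of 25 measured other long noncoding RNAs, 37 listed, 1 fell in each comparison by limma. These were Miat at 5 days (-0.29 ± 0.062, adjusted p = 0.0343), the imprinted antisense RNA Kcnq1ot1 at 42 days (-0.30 ± 0.090, adjusted p = 0.0495) and Lncpint between 5 and 42 days (-0.35 ± 0.097, adjusted p = 0.0468). At 42 days against chow the 25 had a median of -0.06, and 18 were lower and 7 higher than on chow. All calls of this and the preceding lists rest on the fit without a covariate. The 5-day calls, of Snhg18, Fbl and Miat, were lost with the adipocyte mean as a covariate, where 0 of all probe sets passed at 5 days. In that comparison 7 of all probe sets passed with only the 8 arrays compared, and 5 without chow replicate 3 or without HFD 5 days replicate 2. The calls at 42 days also depended on the fit. Against chow, 17 of all probe sets passed with the 3′ to 5′ covariate and 1299 with the adipocyte mean. Against 5 days, 1 passed with the 3′ to 5′ covariate, so at most 1 call of that comparison could remain. Leaving out 1 array, 32 to 3173 of all probe sets passed against 5 days.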

How the data were processed

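Total RNA of skeletal muscle was turned into biotin-labelled cRNA and hybridised to 12 Affymetrix arrays. The authors deposited RMA signals, taken here as log2 values from their range (3.67 to 15.459), and RMA is named without a version in the submitters' processing notes. Array medians were 7.649 to 7.69 on chow, 7.593 to 7.63 at 5 days and 7.655 to 7.701 at 42 days. An array has no read depth, and 4 arrays per group limit the precision. Of 45098 probe sets, 61 controls were left out. Of the rest, 34945 carried 1 gene symbol, 932 several and 9160 none, and 34741 matched the reference genes by Entrez identifier, with 0 symbols changed.

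All groups entered one linear model in limma 3.58.1 under R 4.3.3 (lmFit, eBayes, 9 residual and 6.26 prior degrees of freedom), tested two-sided and adjusted by Benjamini-Hochberg over 45037 probe sets, with an adjusted p under 0.05 as the threshold. The fit was tested on simulated data. The genes, the lists and the tests were chosen with earlier results of these data known, so no p is given for the 35 probe sets. These probe sets are given singly or by range and count. The p values printed for genes of the related lists carry the same limit and serve as a description. Of each related list, up to 4 genes with the smallest p among those past the threshold were eligible to be named or, where none was, 2, and of the genes most like Malat1 and Meg3, 5 each. A planned correlation of Meg3 with H19 was not run, since H19 has no probe set of its own. Replicate numbers did not pair the arrays: of 12 pairs with the same number, 4 correlated over 0.1 (-0.18 to 0.18).

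Alternatives were other normalizations (quantile, cyclic loess, median centring), leaving out the 40% dimmest probe sets, array weights, a trended robust prior, only the 8 arrays compared, a replicate block, the 3′ to 5′ covariate, an adjusted p under 0.1, 1 probe set per gene, and leaving out each array. Promoters come from RefSeq (GRCm38.p6).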

Additional observations from a re-analysis of the deposited data

Results flagged for a closer look

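In 3 of 105 groups of 4 arrays (35 probe sets in 3 groups), 1 array stood apart from the rest by Dixon's test, with a gap to its neighbour above the 95% critical share of the group's range, fewer than the 1 in 20 that chance gives. Meg3 1436057_at read 7.783 on chow replicate 2, and the other chow arrays lay between 7.98 and 7.99 (gap 0.957 of the range). Malat1 1436202_at read 8.436 on chow replicate 1, and the other chow arrays lay between 9.12 and 9.19 (0.912 of the range). Without that array the 42-day difference from chow was -0.93 in place of -0.75. Mirg 1457030_at read 6.894 on HFD 5 days replicate 3, and the other 5-day arrays lay between 6.76 and 6.78 (0.859 of the range).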

How the results depend on the processing

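For the 13 probe sets followed, 847 of 855 recomputed log2 differences stayed within 1 SD of the reported value. Snhg1 1454703_x_at has no value without the dimmest 40%. The other 8 moved further, 7 of them with the 3′ to 5′ covariate, and 0 of the 855 reversed a called difference. Part of the 847 was fixed in advance, since several settings cannot move a difference of group means. These are leaving out dim probe sets, the trended robust prior, only the 8 arrays compared and the replicate block. Leaving out an array of the group not compared cannot move it either. The setting of 1 probe set per gene tested 7 of the 35 probe sets and 18193 of all 45037. Its counts below thus have a smaller base and are not a loss of calls. Of the 35 probe sets, 9 were past the threshold at 42 days against chow, and 3 of 7 with 1 probe set per gene. The number was 0 with the 3′ to 5′ covariate, 2 with the adipocyte covariate and 6 to 11 leaving out 1 array. At 42 against 5 days (5) the number was 2 of 7 with 1 probe set per gene and 0 with the 3′ to 5′ covariate. It was 8 at an adjusted p under 0.1 and 9 with centred arrays. With only the 8 arrays compared it was 8, and leaving out 1 array 0 to 6. At 5 days (0) it was 2 at an adjusted p under 0.1 and 0 to 2 leaving out 1 array. The replicate block gave 1 (Meg3 1428765_at), 10 (adding Mirg 1457030_at) and 5 in the 3 comparisons, though the numbers did not pair the arrays: for 4 of 12 arrays the best correlation was with an array of the same number. Of all probe sets at 5 days (1445), 692 passed with 1 probe set per gene, 533 with the 3′ to 5′ covariate, 0 with the adipocyte covariate, 4770 at an adjusted p under 0.1, 675 with array weights, 2771 with centred arrays, 502 with cyclic loess, 7 with the 8 arrays, 487 with quantile normalization and 5 to 1591 leaving out 1 array. At 42 days against chow (3953) the numbers were 1011, 17, 1299 and 6114 for the first 4 of these, and 1945 to 4407 leaving out 1 array. At 42 against 5 days (2692) they were 1550 with 1 probe set per gene, 1 with the 3′ to 5′ covariate, 6769 at an adjusted p under 0.1, 5221 with centred arrays, 1125 with cyclic loess, 1206 with quantile normalization and 32 to 3173 leaving out 1 array. Lower calls made up 52.5% at 5 days, but 39.2% after quantile normalization, 37.5% after loess and 14.7% after centring, and 60.1% at 42 against 5 days, but 90.3% after centring. The cause of these shifts was not tested.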
